A study of Mus musculus with 7 samples.

Results

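The serpins are a superfamily of proteins, most of which trap a target serine protease on an exposed reactive loop, and alpha-2-macroglobulin is an unrelated plasma protein that cages proteases of every class. A list of 7 such genes was examined in pellets of mouse retinal pigment epithelium (RPE): Serpine2, Serpine3, Serpinf1, Serpinh1, Serpina3n, Serpini1 and A2m. Of these 7 genes, 6 had a probe set annotated to exactly 1 gene symbol, out of 19938 such genes on the array, and Serpine2 was not analysed here. The list was drawn up with the difference between the mutant and wild-type arrays known, so the values of that contrast chose the genes, and they are given below as a description without a test. Of the 6 measured genes, Serpine3 was lower and A2m and Serpina3n were higher in the mutant, with no overlap of the arrays, while the arrays of Serpinf1, Serpinh1 and Serpini1 overlapped. Over all genes the arrays of the groups did not overlap for 15.3%, 5.52% higher and 9.82% lower.

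RNA came from 4 wild-type samples and 3 samples of the Mfrp rd6 genotype, all on the C57Bl/6J background and with no treatment or transgene in the labels, and each sample was hybridised to 1 whole-transcript array. Mfrp codes for a membrane protein of the RPE with a frizzled-like domain, and the rd6 allele is a natural mutation that leads to retinal degeneration. The wild-type mice were 8 weeks old, and the labels disagree on the mutants: in the age field all 3 are 12 weeks old, whereas the growth protocol gives 12 weeks for Mfrp rd6 replicate 1 alone and 8 weeks for the others. By the age field, genotype and age cannot be told apart. The labels do not say that replicates came from separate animals, and the growth protocol speaks of animals in the plural for a single sample, so errors and p-values reflect the spread of these samples alone and may be technical.

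The pellets came off eyecups by agitation, after removal of the cornea and lens, and signal of markers of other tissues was present in them. The mean log2 signal of 14 RPE markers lay between 10.99 and 11.12 in wild type and between 10.97 and 11.05 in Mfrp rd6. The isomerase Rpe65 averaged 12.87 in wild type and 12.64 in Mfrp rd6, and the channel Best1 5.88 and 5.82. Of the 14 markers 0 rose and 1 fell in limma (4 at an unadjusted p under 0.05), where 2.15% of all genes changed. The 1 was Lrat (-0.40, limma adjusted p = 0.0277), which missed the threshold of 0.05 when any array but wild-type replicate 1 was left out (-0.44 to -0.35). The mean of 10 surface epithelium markers lay between 11.51 and 11.65 in wild type and between 11.39 and 11.48 in Mfrp rd6. Skeletal muscle markers (14 genes) ranged from 6.82 to 7.94 and from 7.96 to 8.87, and wild-type replicate 3 was the highest of its group. The array medians were 6.52 to 6.58, and the correlation of arrays over probe sets was at least 0.988. In such bulk samples, fewer cells of a type and less RNA per cell cannot be told apart.

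Serpins fold into a strained state and spring into a relaxed one when a protease cuts the loop, which holds the enzyme in a dead complex. Some members have lost this activity and serve as hormones, neurotrophic factors or chaperones. In the eye the RPE is known to release Serpinf1, also called pigment epithelium-derived factor, which restrains vessel growth and protects photoreceptors. Serpina3n is an acute-phase inhibitor that reactive astrocytes and other stressed tissues release, and alpha-2-macroglobulin, once it has closed on a protease, is cleared through the receptor Lrp1.

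The promoters of Serpine3 and Serpina3n, whose arrays were separate, and of Serpinf1, whose arrays overlapped, are shown because they place the genes on the genome and let the flanks be compared. Each line holds the 250 bases before the RefSeq transcription start, 5′ to 3′ on the strand of the gene in build GRCm38.p6, with matches to the E-box core CANNTG in capitals.
Serpine3, chr14:62663417-62663666, plus strand: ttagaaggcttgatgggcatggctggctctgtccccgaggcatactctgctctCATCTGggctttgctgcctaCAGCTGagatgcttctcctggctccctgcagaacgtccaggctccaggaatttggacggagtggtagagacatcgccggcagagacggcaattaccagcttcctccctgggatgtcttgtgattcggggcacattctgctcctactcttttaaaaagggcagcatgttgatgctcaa
Serpina3n, chr12:104406458-104406707, plus strand: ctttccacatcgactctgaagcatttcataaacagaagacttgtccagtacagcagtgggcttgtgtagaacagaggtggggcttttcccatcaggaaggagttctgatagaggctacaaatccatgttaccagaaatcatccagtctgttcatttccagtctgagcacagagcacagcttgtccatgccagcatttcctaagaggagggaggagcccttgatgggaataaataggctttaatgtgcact
Serpinf1, chr11:75422624-75422873, minus strand: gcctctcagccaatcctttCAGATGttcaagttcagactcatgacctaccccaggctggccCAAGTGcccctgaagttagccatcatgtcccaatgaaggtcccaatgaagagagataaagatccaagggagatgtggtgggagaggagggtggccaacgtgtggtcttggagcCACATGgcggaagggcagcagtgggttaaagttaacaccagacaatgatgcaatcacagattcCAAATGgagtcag

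The E-box core, the sequence that basic helix-loop-helix factors such as Mitf of the RPE bind, occurs in 66.2% of all 32851 windows of this length. It occurred 2 times before Serpine3, 2 times before Serpini1, 1 time before Serpine2, 4 times before Serpinf1 and 0 times before Serpina3n and Serpinh1. Searched on both strands as well were the STAT core TTCNNNGAA (in 7.02% of all windows), the Otx core TAATCC (6.25%), the heat shock core GAANNTTC (6.69%) and the TATA box TATAAA (12.4%), and none of these letters stood in the windows of the 6 serpins that the RefSeq table holds, Serpine2 included. The GC content of the window was 54.4% for Serpine3, 46.4% for Serpina3n, 51.6% for Serpinf1, 63.6% for Serpinh1 and 61.2% for Serpini1, where the median window had 52.4%. A match is a description of the letters, and no match says only that they are not in this window.

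Serpine3, a little-studied serpin that is known to have been lost in several mammals with reduced eyes, was low in every mutant sample and uneven among the wild-type ones. Its log2 signal in wild-type replicates 1 to 4 was 7.75, 10.16, 8.89 and 9.21, and in Mfrp rd6 replicates 1 to 3 it was 5.91, 6.22 and 6.09. The lowest wild-type array thus lay 1.53 log2 units, or 2.89-fold, above the highest mutant array. The means were 9.0 ± 0.99 (SD, n = 4) and 6.07 ± 0.16 (SD, n = 3), a log2 difference of -2.93 (SE 0.43) that amounts to a 7.62-fold lower signal. The size of the difference rested in part on the replicates at the ends of the wild-type range, being -3.35 without wild-type replicate 1, the lowest, and -2.54 without replicate 2, the highest.

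The wild-type range of Serpine3 spanned 2.41 log2 units, or 5.31-fold, against 0.31 among the mutants. The mutant signals lay below the array medians of 6.52 to 6.58, and whether this low level narrowed their spread was not tested. Its wild-type SD ranked 3 among 19938 genes, where the median gene had an SD of 0.11, and this ranking does not use the contrast between the genotypes. Of the 10 genes with the widest wild-type spread, Myl1, Atp2a1, Pvalb, Tnnt3 and Ckm are genes of skeletal muscle and were highest in wild-type replicate 3. Serpine3 did not follow that order, as it was highest in wild-type replicate 2 and lowest in replicate 1. None of the 11 marker lists for cell types had its mean highest in wild-type replicate 2, and skeletal muscle, rod and RPE markers peaked in replicate 3. Single markers could differ from the mean of their list. Among surface epithelium markers, Krt5, Krt14, Krt15, Trp63 and Aldh3a1 were highest in replicate 2, within wild-type ranges of 0.06 to 0.23. Krt12 was highest in replicate 1 and Sfn in replicate 3, and Dsc3, Pkp1 and Perp had no sole high in replicate 2. Krt12 had the widest wild-type range of this list (1.10) and read 8.63 in replicate 1 and 7.53 in replicate 2. Every other marker of the list was higher in replicate 2 than in replicate 1, so the order of the list mean rests largely on Krt12. The source of the spread of Serpine3 was not tested.

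**Figure D1:**
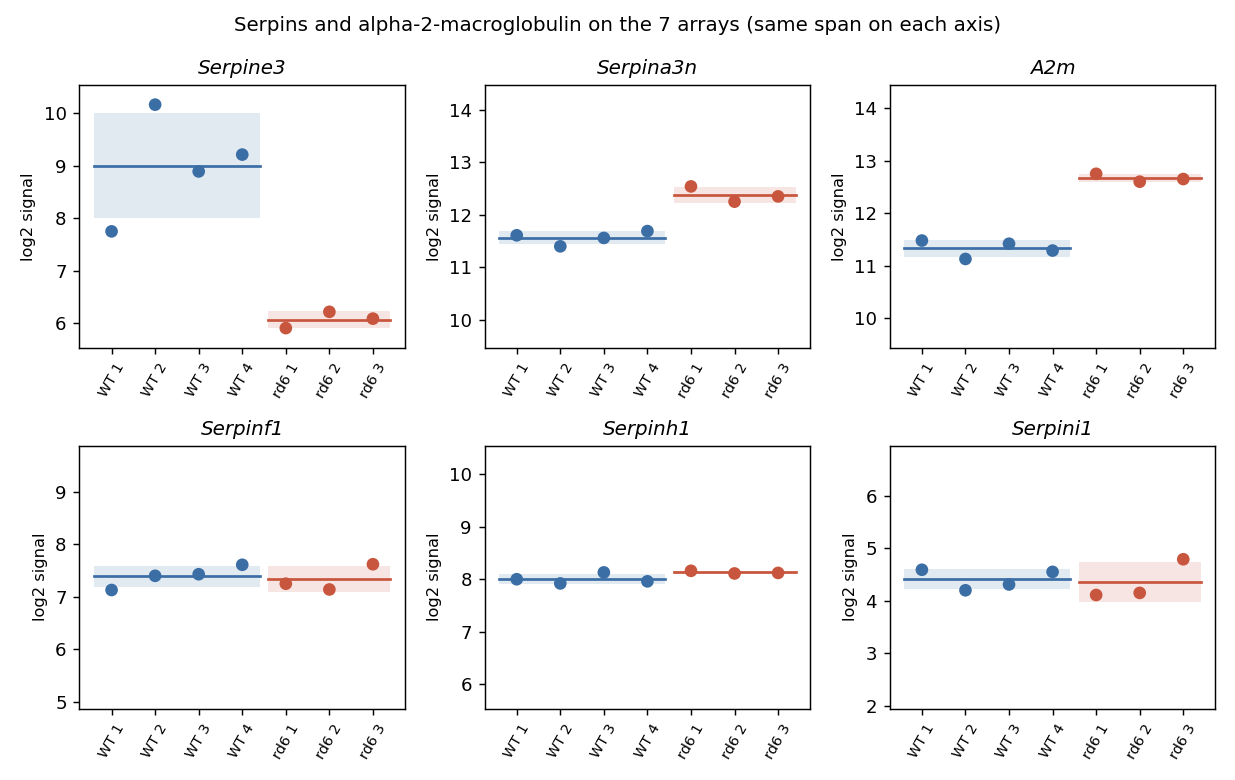
The log2 signal of the 6 measured genes is plotted for each of the 7 arrays, wild type in blue and Mfrp rd6 in red, with lines at the group means, shaded bands of 1 SD and a vertical axis of equal span in every panel. Serpine3 read 7.75 to 10.16 in wild type and 5.91 to 6.22 in the mutants, A2m and Serpina3n lay higher in all 3 mutant samples, and the other 3 genes overlapped between the groups.

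The genes whose profile lay nearest to that of Serpine3 were ranked by the root mean square difference between log2 signals, each gene being centred on its own mean over the 7 arrays. The nearest was Upk3b, a uroplakin of urothelium and mesothelium, at 0.42 log2 units, followed by the winged-helix factor Stox1 at 0.50, the serotonin-gated channel subunit Htr3a at 0.60, the growth factor antagonist Wfikkn2 at 0.69 and Map6d1 at 0.76. Within wild type, Upk3b read 8.93, 9.95, 9.72 and 9.61 in replicates 1 to 4, and Stox1 read 8.52, 9.45, 9.12 and 9.17, so that both were lowest in replicate 1 and highest in replicate 2, as was Serpine3. Htr3a, Wfikkn2 and Map6d1 also had their lowest wild-type signal in replicate 1, but not their highest in replicate 2. The highest was 10.28 in replicate 3 for Htr3a, 11.08 in replicate 4 for Wfikkn2 and 8.96 in replicate 3 for Map6d1. The genes were chosen for a profile like that of Serpine3, so a drop in the mutants and a similar wild-type order are what the choice favours. The likeness holds over 7 arrays of 2 groups and is a description.

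Ranked over the 4 wild-type arrays alone, a ranking added after the values were seen, other genes were the nearest to Serpine3. They were Gpx2, a glutathione peroxidase of epithelia, at 0.40 log2 units, the aldo-keto reductase Akr1b8 at 0.45, the tubulin Tubb4a at 0.47, the ectodysplasin receptor Edar at 0.48 and the sphingolipid enzyme subunit Sptssb at 0.49. Gpx2 read 7.60, 9.42, 7.66 and 8.79 in wild-type replicates 1 to 4 and 7.80 ± 0.20 (SD, n = 3) in Mfrp rd6. Unlike Serpine3, these genes had mutant arrays within or overlapping the wild-type range, with log2 differences from -0.57 (Gpx2, limma adjusted p = 0.554) to 0.03 (Edar, adjusted p = 0.98), and 0 of the 5 passed the test (0 at an unadjusted p under 0.05).

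**Figure D2:**
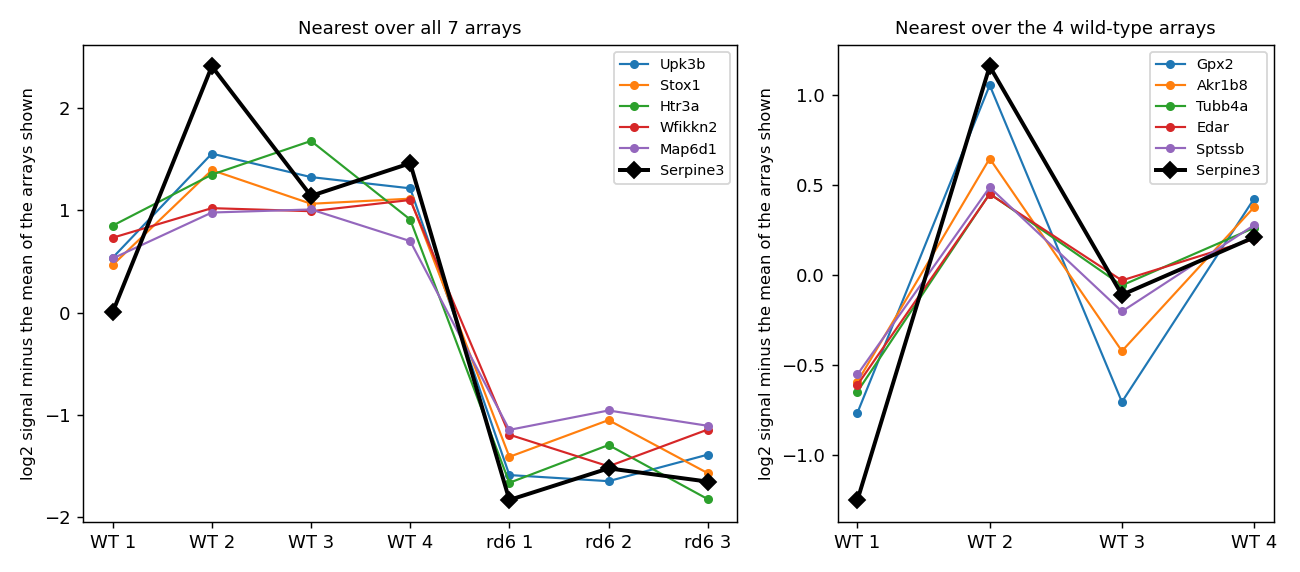
Mean-centred log2 signals of Serpine3 (black) and of its 5 nearest genes are plotted over all 7 arrays on the left and over the 4 wild-type arrays on the right. On the left all 6 genes drop in the mutants and Serpine3 varies most among the wild-type samples. On the right the 5 genes share its low replicate 1 and high replicate 2 at smaller amplitude. The choice of genes by profile implies the likeness in both panels.

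A2m, the broad-spectrum protease trap, had the larger of the 2 higher values in the mutants. Its signal was 11.48, 11.13, 11.42 and 11.29 in wild-type replicates 1 to 4 and 12.75, 12.60 and 12.65 in Mfrp rd6 replicates 1 to 3. Every mutant array exceeded every wild-type array by at least 1.12 log2 units. The means of 11.33 ± 0.16 (SD, n = 4) and 12.67 ± 0.08 (SD, n = 3) differed by 1.34 (SE 0.09), a 2.53-fold higher signal. The difference lay between 1.27 and 1.40 over the 16 alternatives tried, some of which could not move it. Mfrp rd6 replicate 1, the sample that both versions of the labels put at 12 weeks, was the highest of the mutant samples.

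The profiles nearest to that of A2m were those of Cd5l, a secreted protein of macrophages, and Pld4, a phospholipase of microglia and other myeloid cells, both at a root mean square difference of 0.11. As this choice implies, both were higher in the mutants, Pld4 by 1.37 (SE 0.07) and Cd5l by 1.21 (SE 0.08). Of 14 markers of microglia and macrophages, 11 rose and 0 fell, and their mean signal was 7.29 to 7.41 in wild type and 8.83 to 9.39 in Mfrp rd6. In Mfrp rd6 replicates 1 to 3 the marker mean was 8.95, 9.39 and 8.83 and A2m read 12.75, 12.60 and 12.65. These A2m values spanned only 0.15, so nothing is read from their order. The part of these cells in the signal of A2m was not tested.

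Serpina3n, an inhibitor of chymotrypsin-like proteases and granzyme B, read 11.61, 11.40, 11.56 and 11.69 in wild-type replicates 1 to 4. In Mfrp rd6 replicates 1 to 3 it read 12.54, 12.25 and 12.35, so that the lowest mutant array stood 0.56 log2 units above the highest wild-type array. The means were 11.56 ± 0.12 (SD, n = 4) and 12.38 ± 0.15 (SD, n = 3), a difference of 0.82 (SE 0.09) or 1.76-fold. The difference was 0.73 to 0.88 over the 16 alternatives, some of which could not move it. Its nearest profiles were those of Aard and of Plin4, a lipid droplet protein, both at 0.09, and both were 0.79 higher in the mutants, which the choice by profile implies. Serpina3n belongs to a cluster of near-identical genes on its chromosome, of which Serpina3a (0.10) and Serpina3b (-0.06) had probe sets of their own and did not pass, so the share of other members of the cluster in its signal is uncertain.

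The genes that reactive glia and the acute phase response are known to switch on were set beside Serpina3n. Of 22 measured genes in this list, 2 rose and 0 fell, with a median difference of 0.09, against a median of -0.02 over all genes. Osmr, the receptor chain for oncostatin M, which acts on STAT3, rose from 11.15 ± 0.07 (SD, n = 4) to 11.87 ± 0.09 (SD, n = 3). Its log2 change was 0.72 (SE 0.08, limma adjusted p = 0.00112) and passed in all 16 alternatives. The growth factor Fgf2 rose by 0.57 (SE 0.11, adjusted p = 0.033) but missed the threshold when wild-type replicate 2 or any 1 mutant array was left out (0.50 to 0.60, adjusted p of 0.0758 to 0.111). The STAT3 target Socs3 (0.22, adjusted p = 0.201) and Stat3 itself (0.14, adjusted p = 0.337) had mutant arrays above all wild-type arrays without passing, as had Cebpd (0.43, adjusted p = 0.131) and S1pr3 (0.68, adjusted p = 0.0787). The metalloreductase Steap4, with the largest difference of the list in size (-0.90, adjusted p = 0.126), had mutant arrays below all wild-type arrays and did not pass either. Among all genes, mutant arrays lay above all wild-type arrays in 5.52% and below them in 9.82%. Gfap, the filament protein of reactive astrocytes and Muller glia, read 6.43 ± 0.53 and 5.98 ± 0.24 and Lcn2, another acute-phase gene, differed by 0.51 (adjusted p = 0.55). Of 12 markers of Muller glia and astrocytes 0 changed in limma (3 at an unadjusted p under 0.05), and their mean lay between 8.80 and 9.02 in wild type and between 8.82 and 8.88 in Mfrp rd6.

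Serpinf1 overlapped between the groups throughout. It read 7.13, 7.40, 7.43 and 7.61 in wild-type replicates 1 to 4 and 7.25, 7.14 and 7.62 in Mfrp rd6 replicates 1 to 3. The difference of -0.06 (SE 0.14) was smaller than the SD of either group (0.20 and 0.25), and its sign turned among the alternatives (-0.20 to 0.06). Its nearest profiles were those of Clec14a, an endothelial surface protein, at 0.04 and of the metalloprotease inhibitor Timp1 at 0.06. The putative receptors of the Serpinf1 protein did not pass the limma test, with Pnpla2, a triglyceride lipase, 0.09 higher (adjusted p = 0.691) and the laminin receptor Rpsa 0.01 higher (adjusted p = 0.985).

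Serpinh1, known as Hsp47, stays in the endoplasmic reticulum as a chaperone of collagen and is neither secreted nor a protease inhibitor, so it shares the fold of the group but not its label. It read 8.00, 7.92, 8.13 and 7.96 in wild type and 8.16, 8.11 and 8.12 in Mfrp rd6, the narrowest mutant range of the 6 genes at 0.05. The difference was 0.13 (SE 0.07), with 0.10 to 0.18 over the alternatives, and wild-type replicate 3 lay within the mutant range. Among 27 measured collagens and collagen-folding genes 1 rose and 0 fell, with a median difference of -0.04. The riser was Col8a1, a short-chain collagen of basement membranes such as that beneath the RPE, which read 11.70 ± 0.17 (SD, n = 4) without the mutation and 12.17 ± 0.06 (SD, n = 3) with it, 0.47 higher (limma adjusted p = 0.0419). It passed in 8 of 16 alternatives, and missed the threshold when any array but wild-type replicate 3 was left out (0.42 to 0.50, adjusted p of 0.0816 to 0.14). The fibrillar chains that Serpinh1 serves did not pass, with Col1a1 at -0.23 (adjusted p = 0.146), Col1a2 at -0.21 (adjusted p = 0.276) and Col3a1 at -0.09 (adjusted p = 0.63). Of 12 fibroblast markers 0 rose and 1 fell, the matrix proteoglycan Dcn, which differed by -0.92 (adjusted p = 0.014) and missed the threshold when Mfrp rd6 replicate 1 (-0.93, adjusted p = 0.0532) or replicate 2 (-0.81, adjusted p = 0.055) was left out.

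Serpini1, the neuroserpin that restrains tissue plasminogen activator in the nervous system, had a signal below the lower quartile of every array. It read 4.59, 4.20, 4.31 and 4.55 in wild type and 4.11, 4.15 and 4.79 in Mfrp rd6, and mutant replicate 3 lay above all wild-type arrays while the others lay below them. The difference was -0.06 (SE 0.17), between -0.28 and 0.06 where the gene was kept. Its protease, tissue plasminogen activator (Plat), read 7.65 ± 0.09 (SD, n = 4) and 7.48 ± 0.12 (SD, n = 3), a difference of -0.17 that did not pass (limma adjusted p = 0.37). Of 12 markers of inner retinal neurons, among which are cells that make neuroserpin, 0 changed in limma and 4 had an unadjusted p under 0.05.

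The 6 genes are part of the limma fit over all genes, where 3 of them lay under the adjusted p of 0.05, 2 higher and 1 lower, as did 2.15% of the 19938 genes, 1.34% higher and 0.813% lower. The arrays of the groups did not overlap for the same 3 genes, as for 15.3% of all genes, 5.52% higher and 9.82% lower. The list was chosen on this contrast, so these counts restate the choice, and nothing is read from them.

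Of 44 other serpins with a probe set of their own (Agt, the angiotensin precursor with a serpin fold, included), 1 rose and 1 fell, where 2.15% of all genes changed, and the median difference was -0.01, against -0.02 over all genes. Serpinf2, the plasma inhibitor of plasmin, rose from 6.71, 6.43, 6.62 and 6.60 in wild type to 7.43, 7.05 and 7.16 in Mfrp rd6. The change of Serpinf2 was 0.62 (SE 0.10, limma adjusted p = 0.0153), and it missed the threshold without Mfrp rd6 replicate 1 (0.52, adjusted p = 0.0507) and when both wild-type replicate 3 and mutant replicate 2 were left out (0.72, adjusted p = 0.052). Serpinb2, an inhibitor of urokinase made by macrophages and epithelia, fell from 8.87, 9.01, 9.03 and 8.78 to 7.80, 8.36 and 8.10. Its change of -0.84 (SE 0.13, adjusted p = 0.0102) passed in all 16 alternatives, from -0.97 to -0.69. The surface epithelium markers had a median difference of -0.11 (0 of 10 changed in limma, 2 at an unadjusted p under 0.05), and those of microglia and macrophages one of 1.31. The part of either cell type in the change of Serpinb2 was not tested.

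By clade, 0 of 14 further clade A serpins changed in limma (0 at an unadjusted p under 0.05), the group of plasma antitrypsins and hormone carriers, with differences from -0.09 to 0.28. Of 24 clade B serpins, which act inside cells, 0 rose and 1 fell, with differences from -0.84 to 0.18. The epithelial members Serpinb5 (-0.17, adjusted p = 0.392) and Serpinb11 (-0.28, adjusted p = 0.162) did not pass. The antithrombin Serpinc1 read 5.16 ± 0.12 (SD, n = 4) and 5.21 ± 0.16 (SD, n = 3). Serping1, the inhibitor of the complement proteases C1r and C1s, differed by 0.23 (adjusted p = 0.669) with SDs of 0.36 and 0.35.

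**Figure D3:**
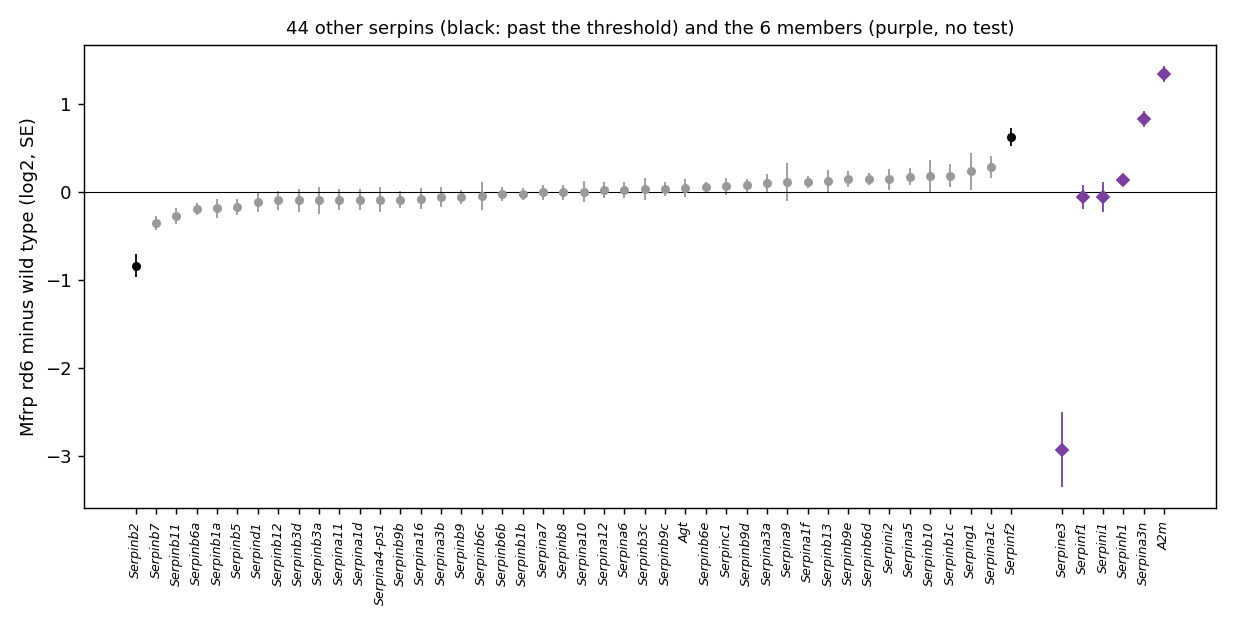
The log2 difference between Mfrp rd6 and wild type is plotted with its standard error for 44 other serpins, sorted by size, and for the 6 examined genes (purple diamonds, no test). Among the other serpins Serpinf2 (0.62) and Serpinb2 (-0.84) are past the threshold (black), and the rest lie between -0.36 and 0.28.

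Of 8 measured relatives of A2m with the same thioester fold, 2 rose and 0 fell, where 2.15% of all genes changed. Their median difference was 0.05. The risers were the complement genes C4b, which read 7.30 ± 0.16 (SD, n = 4) without the mutation and 10.45 ± 0.13 (SD, n = 3) with it, 3.16 higher (limma adjusted p = 1.21e-06), and its near-identical copy C4a (1.5, adjusted p = 0.0109), so that the split of signal between the copies is uncertain. C4a missed the threshold in 1 of the 14 alternatives that kept it (limma adjusted p = 0.0659). The protease traps proper did not pass, with the murinoglobulins Mug1 at 0.08 (adjusted p = 0.813) and Mug2 at 0.41 (adjusted p = 0.0972) and Pzp, the pregnancy zone protein, at -0.10 (adjusted p = 0.777). Mug2 had mutant arrays above all wild-type arrays, whereas A2ml1 (-0.19, limma adjusted p = 0.306) had mutant arrays below them and did not pass either. Cd109, a membrane-anchored relative, read 8.50 ± 0.13 and 8.48 ± 0.14. A2m itself, without a test, differed by 1.34, between the values of Mug2 and C4b.

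Among 40 inhibitors of other families 1 rose and 2 fell, with a median difference of 0.00. Cst7, a cystatin of myeloid cells that restrains cathepsins, rose from 6.12 ± 0.19 (SD, n = 4) to 9.36 ± 0.29 (SD, n = 3), by 3.24. Its signal thus moved alongside the microglia and macrophage markers, and their part in it was not tested. Wfikkn2, which carries Kunitz and whey acidic protein domains beside its antagonism of growth factors, fell from 10.94 ± 0.16 to 8.69 ± 0.20. Its 2 probe sets gave log2 differences of -2.25 and -2.17. Spink5, the inhibitor of epidermal kallikreins, fell from 7.56 ± 0.27 to 6.94 ± 0.09 (-0.62, limma adjusted p = 0.0487), and it missed the threshold when any array but wild-type replicate 4 was left out (-0.68 to -0.51, adjusted p of 0.0593 to 0.161). Timp1 (-0.01, adjusted p = 0.988) and Slpi (0.34, adjusted p = 0.0883) did not pass.

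Serine proteases are the usual targets of serpins. Of 35 measured ones 1 rose and 1 fell, where 2.15% of all genes changed, with a median difference of -0.03, and 1 to 4 were called over the alternatives. The complement protease C1ra rose from 5.78 ± 0.20 (SD, n = 4) to 6.55 ± 0.08 (SD, n = 3), by 0.77 (limma adjusted p = 0.00734, below 0.05 in each of the 15 alternatives that kept it). Htra1, a secreted protease of the matrix beneath the RPE, fell from 8.72 ± 0.12 to 8.19 ± 0.17 (-0.53, adjusted p = 0.0267), and fell short when wild-type replicate 1, 2 or 4 or Mfrp rd6 replicate 1 or 2 was dropped (-0.57 to -0.43, adjusted p of 0.0626 to 0.0898). Urokinase (Plau) differed by -0.02, thrombin (F2) by -0.06 and plasminogen (Plg) by -0.11, with adjusted p of 0.97, 0.762 and 0.559. Granule proteases of the kind that Serpina3n restrains did not pass, with Gzmb at -0.09 (adjusted p = 0.727) and Ctsg at -0.03 (adjusted p = 0.951).

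Of 23 receptors and cofactors 1 rose and 1 fell, with a median difference of -0.02. Lrp1, which takes up alpha-2-macroglobulin and serpin complexes, read 11.41, 10.94, 11.37 and 11.15 in wild type and 10.82 to 11.03 in Mfrp rd6, so that the groups overlapped, and the difference of -0.27 did not pass (limma adjusted p = 0.316). Its relative Lrp2, also called megalin, fell from 9.07 ± 0.16 (SD, n = 4) to 8.48 ± 0.23 (SD, n = 3), by 0.58 (adjusted p = 0.0426), and passed in 5 of 16 alternatives. It missed the threshold when any 1 of the 7 arrays was left out (-0.66 to -0.45, adjusted p of 0.0561 to 0.108). Sdc3, a heparan sulfate proteoglycan of the kind that binds serpins, rose by 0.47 (adjusted p = 0.0263), and fell short when wild-type replicate 1, 2 or 4 or Mfrp rd6 replicate 2 or 3 was dropped (0.40 to 0.49, adjusted p of 0.0547 to 0.102).

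**Figure D4:**
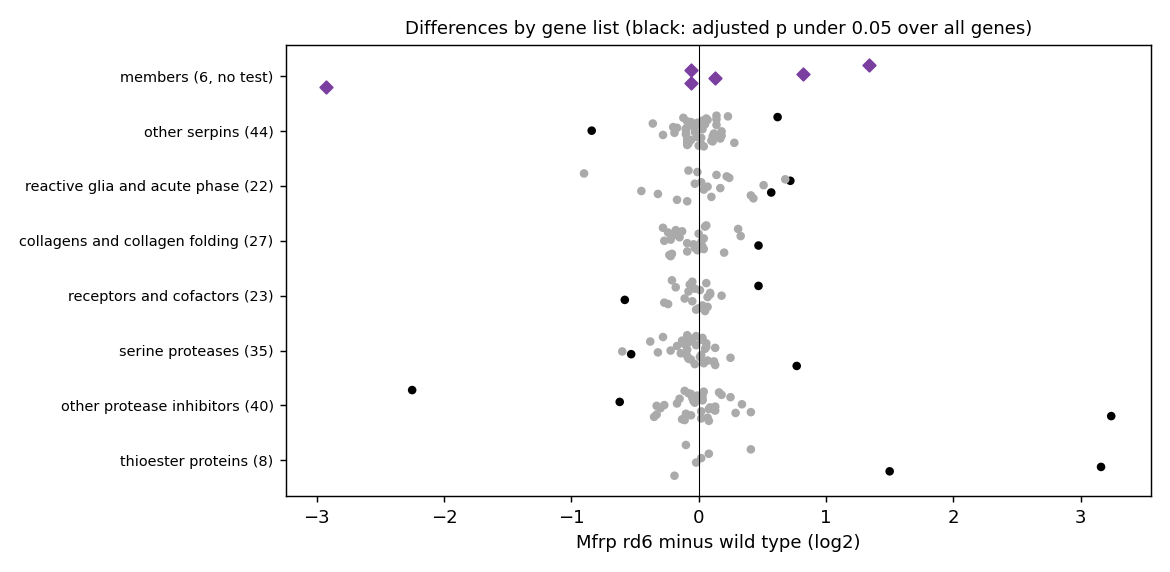
Each point is the log2 difference between Mfrp rd6 and wild type of 1 gene, by list, with the number of measured genes in brackets, black for a limma adjusted p under 0.05 over all genes and purple diamonds for the 6 examined genes, which carry no test. The differences of most list genes lie close to 0, and those beyond 2 log2 units are C4b, Cst7, Wfikkn2 and, among the examined genes, Serpine3.

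Several cell type lists differed between the groups on the arrays that carry these values. Of 14 skeletal muscle markers 3 rose and 0 fell (14 at an unadjusted p under 0.05, median 1.11). With 1 array left out, 0 to 11 muscle markers were called, 11 without wild-type replicate 3, 7 without Mfrp rd6 replicate 3 and 0 without any of the others. Of 11 choroidal endothelium markers 2 rose and 0 fell (9 at an unadjusted p under 0.05, median 0.43), and 0 were called when any array but wild-type replicate 4 was left out. Of 10 rod markers 0 changed in limma (3 at an unadjusted p under 0.05), with a median of -0.57. With wild-type replicate 3 and mutant replicate 2 left out, the arrays with the highest muscle signal in their groups, the difference was -3.04 for Serpine3, 1.40 for A2m and 0.88 for Serpina3n. The share of other tissues in the pellets was not measured, and its part in the differences of the 6 genes was not tested.

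**Figure D5:**
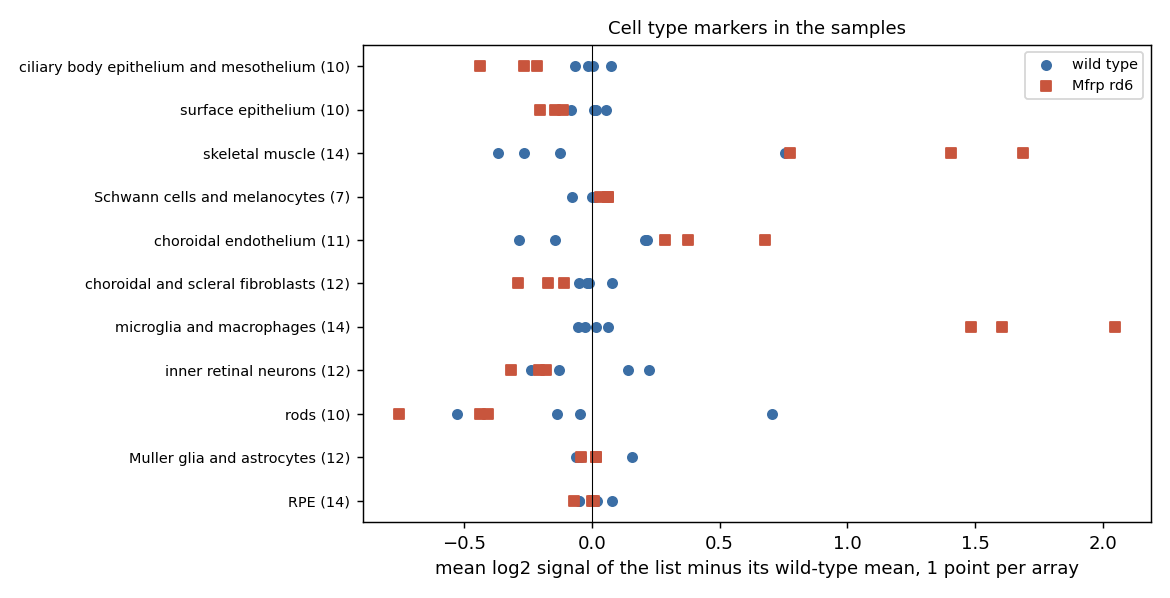
The mean log2 signal of each marker list, relative to its wild-type mean, is plotted with 1 point per array for wild type (blue circles) and Mfrp rd6 (red squares). Microglia and macrophage markers lie higher in all 3 mutant arrays, skeletal muscle markers lie higher in the mutants with wild-type replicate 3 next to them, and the mean of the RPE markers stays within a narrow band.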

How the data were processed

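RNA from 7 RPE pellets (4 wild type, 3 Mfrp rd6) was measured on Affymetrix whole-transcript arrays. The authors deposited 1 table of log2 signals for 35556 probe sets, made with RMA in Affymetrix Expression Console per the submitters' processing notes, and their versions are not stated in these sources. Scanner intensities were not used here, so the background correction and normalization were kept. Of the probe sets, 21789 carried 1 gene symbol in the platform annotation, 1621 several and 12146 none. The first group gave 19938 genes, and for the 999 genes with several probe sets the probe set with the highest mean was kept. None of the members had more than 1. Serpine2 was not analysed here.

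Groups were taken from the genotype labels. All genes were fitted with limma 3.58.1 in R 4.3.3 (empirical Bayes moderation, 5 residual and 4.56 prior degrees of freedom), with Benjamini-Hochberg adjustment over all genes and a threshold of 0.05. The median standard error was 0.088, and the number of arrays limits the precision. Counts at an unadjusted p under 0.05 are given for lists without the share over all genes, so they cannot be set against a background. On simulated data of 19938 genes, 51% of genes changed by 0.5 and 97% of genes changed by 1 log2 unit were recovered, and 5.73% of calls were false. Tables and plots used Python 3.11.15, pandas 2.3.3 and matplotlib 3.10.9.

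The members and lists were chosen with earlier results of these data known. The genes named were all members, up to 4 genes past the threshold with the largest change in each list (with none, the gene of smallest p), markers at the extremes, and the genes with the nearest profile (5 for Serpine3, 2 for each other member), leaving out predicted and clone names. Further genes were named for their known role after their values were seen. Alternatives were quantile normalization, median centring, a replicate block, weighted arrays, averaged probe sets, robust moderation with a trended variance, removal of dim genes and the omission of arrays.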

Additional observations from a re-analysis of the deposited data

Results flagged for a closer look

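Among 50 genes whose wild-type arrays were checked for a sample far from the others, 2 had one. Pld4, one of the nearest in profile to A2m, read 6.49 in wild-type replicate 3 and 6.28, 6.29 and 6.29 in the others, so that the gap took 0.952 of the wild-type range, above the critical share of 0.829. Plin4, one of the nearest to Serpina3n, read 6.84 in wild-type replicate 2 and 7.23, 7.28 and 7.28 in the others, a gap of 0.886 of the range. Chance marks about 1 in 20 such groups.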

How the results depend on the processing

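Over 16 alternatives Serpine3 stayed lower (-3.35 to -2.54) and A2m (1.27 to 1.40) and Serpina3n (0.73 to 0.88) higher, directions that the choice of the genes fixed. The filters on dim genes, the variance trend and averaged probe sets cannot move the difference of a member, so they are no check on its size. In the fit over all genes Serpine3 lay above the threshold with a variance trend and when wild-type replicate 3 and mutant replicate 2 were left out. The precision is limited by the number of arrays. Serpini1 and C4a were removed by both filters on dim genes, and Serpinf2 by the filter at the median gene. The lower counts of thioester proteins and other serpins under these filters are those removals. The causes of the other changes below were not tested. The main counts were 429 changed genes (267 higher, 162 lower), 2 thioester proteins, 3 other inhibitors, 2 serine proteases, 2 receptors and cofactors, 1 collagen gene, 2 reactive glia genes and 2 other serpins. Among genes above the median gene 302 were lower and 214 higher, with 1 thioester protein, 2 collagen genes and 1 other serpin. A mean of at least 6 gave 269 higher and 229 lower, 1 thioester protein, 4 serine proteases and 2 collagen genes. Quantile normalization gave 1 receptor and 2 collagen genes. A variance trend with robust moderation gave 718 changed genes (363 higher, 355 lower), 4 serine proteases and 2 collagen genes. Array weights gave 679 (405 higher, 274 lower), 4 serine proteases, 1 receptor and 2 collagen genes. With both wild-type replicate 3 and mutant replicate 2 left out there were 193 (155 higher, 38 lower), 1 thioester protein, 1 serine protease, 0 receptors, 0 collagen genes, 1 reactive glia gene and 1 other serpin. With any single array left out there were 211 to 325 changed genes (152 to 235 higher, 59 to 108 lower), lowest without Mfrp rd6 replicate 1, with 1 to 2 serine proteases, 0 to 1 receptors, 0 to 1 collagen genes, 1 to 3 reactive glia genes and 1 to 2 other serpins.

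The groups share replicate numbers 1 to 3, but samples with the same number did not deviate together (correlations of -0.303, -0.0729 and 0.0364, and 0 of 6 samples lay closest to their own number), so the numbers were not taken to pair the samples. With the replicate block the counts were 226 changed genes (166 higher, 60 lower), 1 serine protease, 0 receptors and 0 collagen genes, and Serpine3, A2m and Serpina3n differed by -2.86, 1.32 and 0.86. Leaving out wild-type replicate 4, which shares its number with no mutant sample, gave the same 3 differences.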

Other observations

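Probe sets annotated to several serpins at a time stayed out of the comparisons. The paralogues of Serpina1, the antitrypsins of mouse plasma, shared 2 probe sets, with log2 signals of 5.31 ± 0.22 and 8.02 ± 0.31 (SD, n = 4) in wild type and 5.50 ± 0.13 and 8.30 ± 0.14 (SD, n = 3) in Mfrp rd6. In both probe sets the groups overlapped. The Serpinb9 paralogues d, e, f and g shared 3 probe sets with differences of -0.05, -0.09 and -0.01.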
